A study of Mus musculus with 2207 samples.

Results

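Layer 5 excitatory neurons were followed among single nuclei of mouse cortex by a rule on 12 layer markers. Of the nuclei labelled Neuron, those with more Slc17a7 (vesicular glutamate transporter 1) than Gad1 (an enzyme that makes GABA) were taken as excitatory. Each marker was put on the log2(RPKM + 1) scale, where RPKM is reads scaled to the length of the gene and to the mapped reads of the nucleus, and turned into a z-score over the excitatory nuclei of one plate format. A nucleus was called layer 5 when the mean z-score of Fezf2, Etv1 and Bcl11b was above those of Cux2, Calb1 and Otof (upper layer), Rorb, Rspo1 and Scnn1a (layer 4/5a), and Foxp2, Tle4 and Syt6 (layer 6). Of 2207 nuclei in all, 1664 were neurons and 1324 excitatory, and 24.7% of the excitatory nuclei were layer 5 by this rule. The other 997 excitatory nuclei were upper layer (26.96% of the excitatory nuclei), layer 4/5a (27.6%) and layer 6 (20.7%) nuclei.

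The nuclei came from C57BL6/J mice 14 weeks old and were sequenced by RamDA-seq, a full-length total RNA method. For all pools 2 doses of 100 mg/kg tamoxifen from 3 weeks of age are listed. The study gives the doses a week apart and describes the treatment for its lines with CreER, a tamoxifen-activated Cre. There were 6 pools of nuclei, with 3 mice pooled per genotype. On 96-well plates stood wild type (Ehmt1+/+) and Ehmt1delta/+. By the submitters' genotypes, on 384-well plates stood a WT and an Ehmt1delta/+ pool that both carried the Ehmt1 iTg transgene without CamKII-CreER. After them stood an iTg pool (Ehmt1+/+ with Ehmt1 iTg and CamKII-CreER) and an Ehmt1delta/+;iTg pool (Ehmt1delta/+ with both transgenes). The study's figure legends can be read as giving CamKII-CreER to all of these 384-well groups, and the pools are described here as labelled. Ehmt1 iTg is a FLAG-tagged Ehmt1 transgene at Rosa26 that Cre switches on, and CamKII-CreER limits that Cre to forebrain excitatory neurons. Since the labels name no mouse for any nucleus, each pool counted as 1 replicate and p-values measure the spread between pools. Layer 5 nuclei numbered 53, 56, 51, 54, 50 and 63 in the pools in the order given, which was 27.7%, 25.5%, 24.3%, 21.3%, 22.7% and 27.4% of each pool's excitatory nuclei. The exact 95% binomial intervals of these shares ran from 16.5% to 34.7% and all overlapped.

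Layer 5 is the main output layer of the cortex. Its extratelencephalic neurons project to the spinal cord, brainstem and thalamus and depend on the transcription factors Fezf2 and Bcl11b (CTIP2), its intratelencephalic neurons project to other cortical areas and to the striatum, and its near-projecting neurons have short local axons. Etv1 (ER81) is a transcription factor of the ETS family and a classical layer 5 marker. Ehmt1 encodes GLP, which with G9a (Ehmt2) places dimethylation on lysine 9 of histone H3, a mark of silenced euchromatic genes.

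RNA of the targeted gene was not lower in the pools labelled Ehmt1delta/+. In layer 5 nuclei Ehmt1 (chr2:24789928-24919614, minus strand, mm10) stood at 19.3 RPKM in the 96-well wild type pool and 31.4 in the 96-well Ehmt1delta/+ pool. It stood at 18.95 and 30.1 RPKM in the corresponding 384-well pools, and at 19.3 and 32.5 RPKM in the iTg and Ehmt1delta/+;iTg pools. Ehmt1 RNA was therefore higher, and not lower, in every pool labelled Ehmt1delta/+. The other excitatory nuclei showed the same order, with 17.2 and 30.2, 18.7 and 30.7, and 20.6 and 34.6 RPKM in the same 3 pairs, and the mean over the pools was 25.3 RPKM in both classes (log2 difference 0.00 ± 0.06 SE). The files give 1 value per gene and do not separate the deleted allele from the intact one, and the pools are named as labelled. The exons of Ehmt1 overlap those of Gm37139 on the same strand. By Western blot the study found less GLP protein in brain lysate of Ehmt1delta/+ mice, which was not measured in these nuclei.

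The 3 markers that chose the nuclei are given as a description. Fezf2 averaged 21.1 RPKM over the pools in layer 5 nuclei, against 0.46 in upper layer, 2.42 in layer 4/5a and 16.4 in layer 6 nuclei. Bcl11b averaged 11.8 RPKM in layer 5 nuclei and 14.2 RPKM in layer 6 nuclei, with 2.79 and 0.73 in the upper and layer 4/5a nuclei. Etv1 averaged 5.94 RPKM in layer 5 nuclei and between 0.34 and 0.73 RPKM in the other classes. Among the 4 excitatory classes, Fezf2 and Bcl11b were thus at like levels in layer 5 and layer 6 nuclei, which follows in part from the rule. A read of Fezf2 was detected in 71.3%, of Etv1 in 83.2% and of Bcl11b in 79.2% of layer 5 nuclei, at a median of 374911 reads a nucleus. In layer 6 nuclei, at a median of 349073 reads, Fezf2 (88.7%) and Bcl11b (93.4%) were detected more often and Etv1 (22.3%) less often. The shares in oligodendrocyte nuclei, at a median of 69241 reads, were 4.53%, 44.6% and 8.06%, and Etv1 stood at 2.47 RPKM there, near its lowest layer 5 pool (2.93). Tle4, one of the layer 6 markers, was detected in 76.1% of the layer 5 nuclei, at 10.7 RPKM, and Foxp2 in 23.9%, at 0.33 RPKM.

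**Figure D1:**
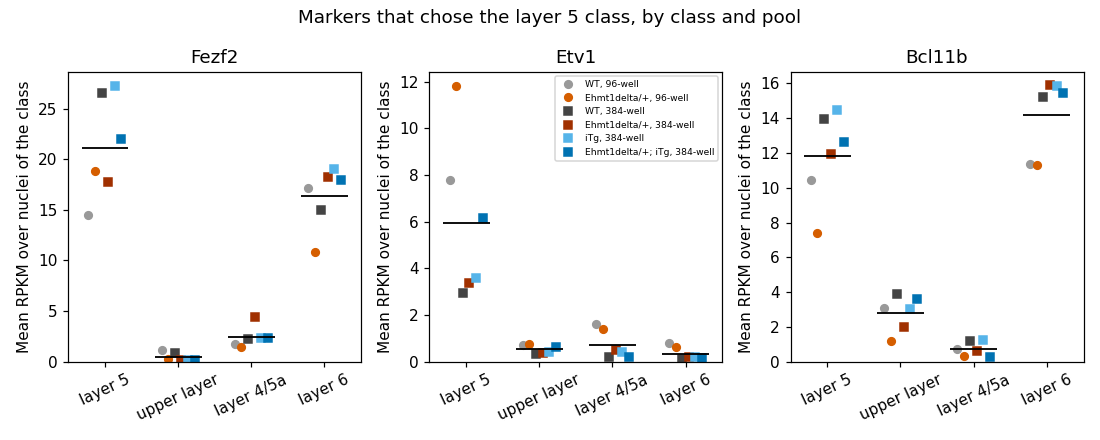
Mean RPKM of Fezf2, Etv1 and Bcl11b (linear vertical axes) in the layer 5, upper layer, layer 4/5a and layer 6 nuclei of each pool. Each point is 1 pool and each line the mean of the 6 pools. Fezf2 and Bcl11b are high in layer 5 and in layer 6 nuclei, and Etv1 is above 2.9 RPKM in layer 5 nuclei of every pool.

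The markers were not all found in the same nuclei. All 3 were detected in 43.4% of the layer 5 nuclei, Fezf2 and Etv1 without Bcl11b in 65, Etv1 and Bcl11b without Fezf2 in 62, and Fezf2 and Bcl11b without Etv1 in 26. Bcl11b was the only marker in 29 nuclei, Etv1 in 3 and Fezf2 in 0. The marker with the highest z-score was Etv1 in 47.7% of nuclei, Bcl11b in 99 nuclei (30.3%) and Fezf2 in 72 (22.02%). The next highest class score was that of layer 6 in 41.9% of nuclei, of layer 4/5a in 34.6% and of the upper layers in 23.5%. The 5 nuclei just inside the rule led the next class by 0.0019 to 0.0147 score units and the 5 just outside trailed by 0.0159 to 0.0299. The median lead was 0.73, and 67 nuclei led by less than 0.25, which leaves 260 strictly chosen nuclei.

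Slightly more genes were detected in layer 5 nuclei than in the other excitatory nuclei. Reads per nucleus ranged from 50659 to 1332269, and the median was higher than in the other excitatory nuclei of the same pool in 4 of 6 pools, all of them 384-well (mean log2 difference 0.18 ± 0.18 SD, n = 6, exact sign-flip permutation test, 2-sided p = 0.125). With nuclei thinned to 287248 reads on the 96-well and 191338 on the 384-well plates, which left out 1 to 8 layer 5 and 9 to 27 other nuclei a pool, the median number of genes detected was higher in layer 5 nuclei in 6 of 6 pools. The mean log2 difference was 0.0368 (exact sign-flip permutation test, p = 0.03125, the smallest p that 6 pools allow, 0.0469 after Benjamini-Hochberg adjustment over 3 measures). Unthinned, it was 0.0736, also in 6 of 6 pools. Its part in the differences between classes was not tested.

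The first comparison asked which genes besides the 14 that chose the nuclei differed between layer 5 and the other excitatory nuclei of the same pool. limma was fitted on log2(mean RPKM over nuclei + 0.1) with the pool as a block, over 25246 genes detected in at least 10% of nuclei of either class. At a Benjamini-Hochberg adjusted p under 0.05, 1430 genes (5.66%) were higher and 1489 (5.9%) lower in layer 5 nuclei, and the median log2 difference of all genes was -0.01. These genes were measured in the same nuclei that the rule chose. Averaging log2(RPKM + 1) over nuclei instead moved the split to 2905 higher and 1612 lower. The total of 2919 genes became 1782 without the 96-well wild type, 1509 without the 96-well Ehmt1delta/+ and 1784 without the Ehmt1delta/+;iTg pool.

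The genes that led layer 5 upward were of several kinds. Fibcd1, a chitin-binding membrane receptor (chr2:31813290-31846005, minus strand), ranged over the 6 pools from 2.34 to 7.87 RPKM, with a median of 3.50, in layer 5 nuclei, and from 0.111 to 0.386, with a median of 0.315, in the others (log2 difference 3.41 ± 0.20, limma adjusted p = 0.000629). Vav2, an exchange factor for small GTPases (chr2:27262104-27427033, minus strand), ranged from 2.68 to 5.002 RPKM with a median of 4.06, against 0.371 to 0.653 with a median of 0.427 (2.86 ± 0.18, adjusted p = 0.000852). Stac, an adaptor protein that binds calcium channels, ranged from 0.702 to 4.36 RPKM with a median of 2.12, against 0 to 0.447 with a median of 0.129 (3.31 ± 0.32, adjusted p = 0.00235). In all 3 genes the lowest layer 5 pool lay above the highest pool of the others. Mirt1, a long noncoding RNA, had the highest log2 difference of the named genes, 3.80 ± 0.51, but varied widely among the layer 5 pools, from 1.04 RPKM in the 384-well Ehmt1delta/+ pool to 10.8 in the 96-well one.

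A group of neighbouring kallikrein genes on chromosome 7, which encode secreted serine proteases, was among the 12 highest. Klk9 (chr7:43791891-43796757, plus strand) ranged from 1.48 to 6.00 RPKM in layer 5 nuclei and from 0.0523 to 0.517 in the others (3.37 ± 0.40). Klk12 (3.18 ± 0.40), Klk10 (2.96 ± 0.44) and Klk8 (2.54 ± 0.36) were also higher. Each of the 4 was detected in few layer 5 nuclei, from 11.3% for Klk8 to 15.6% for Klk9. These shares lie close to the detection filter, which a gene can pass through layer 5 nuclei alone. Klk8 was tested in 5 of the fits that left out a pool, and otherwise fell under the filter in both classes. How far the place of these 4 genes among the highest follows from the filter was not tested. The exons of Klk8 overlap those of 2310002F09Rik on the other strand. The counting was stated to use default settings, which ignore strand, so the reads of such a pair cannot be told apart. The other genes of the 12 were Myzap (3.63), the potassium channel interacting protein Kcnip1 (3.07), the sodium-proton exchanger Slc9a2 (2.83) and Fn1, fibronectin (2.72), and the pools overlapped between the classes only for Fn1 among these 12.

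The genes lowest in layer 5 were led by Adam33, a metalloprotease (chr2:131050591-131063814, minus strand). It ranged from 0.919 to 7.07 RPKM with a median of 2.41 in layer 5 nuclei, and from 16.4 to 53.3 with a median of 30.6 in the other excitatory nuclei (-3.61 ± 0.20, adjusted p = 0.000538). Cbln4, a secreted synaptic organiser of the cerebellin family (chr2:172036233-172043466, minus strand), ranged from 0.0882 to 0.958 RPKM against 2.38 to 7.50 (-3.33 ± 0.13, adjusted p = 0.000215). Stard8, a GTPase-activating protein that was also on the upper layer list, stood at a mean of 1.29 against 8.85 RPKM (-2.71 ± 0.13). The classes did not overlap over pools in these 3 genes. The others of the 12 were Tspan11 (-3.47), Mamdc2 (-2.99), the potassium-chloride cotransporter Slc12a4 (-2.97), Ighm (-2.93), Ddit4l (-2.85), the netrin Ntn4 (-2.84), Il12a (-2.81), Il4ra (-2.73) and Rab37 (-2.71). Of these 24 genes 23 were called in every fit that left out 1 pool and tested them, Klk8 being tested in 5 of these fits. Ighm, the constant region of immunoglobulin M, was not called without the 96-well wild type, the 384-well WT or the Ehmt1delta/+;iTg pool (highest adjusted p 0.0861).

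**Figure D2:**
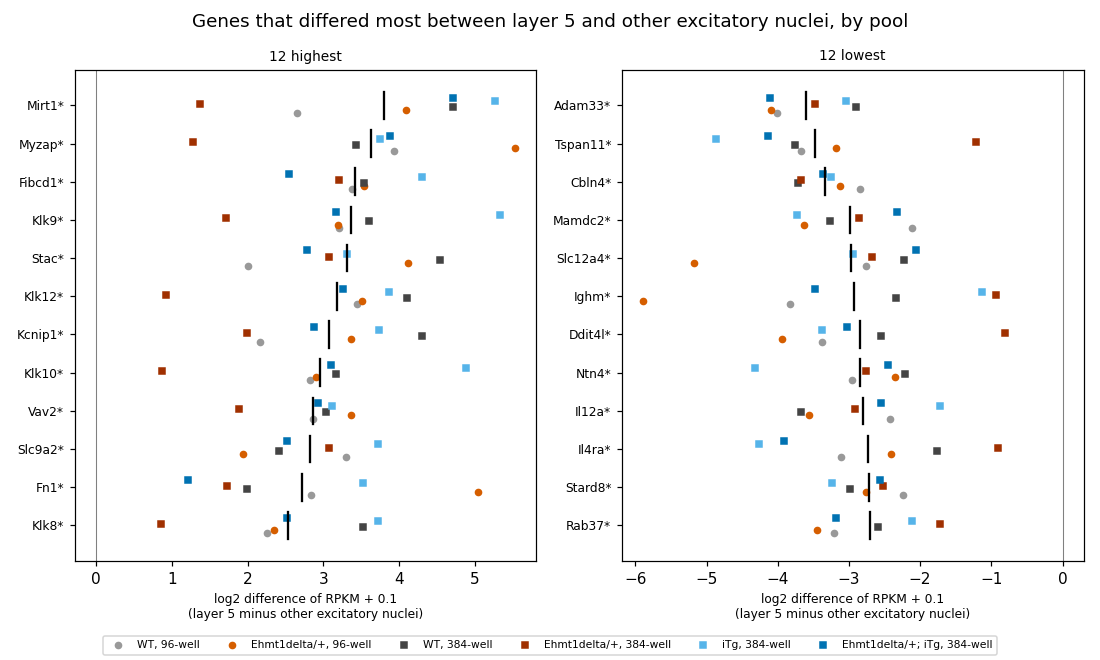
The 12 highest and 12 lowest named genes in layer 5 nuclei, as the log2 difference of RPKM + 0.1 between layer 5 and other excitatory nuclei of the same pool (horizontal axis). Each point is 1 pool, the bar is the mean of the 6 pools and the asterisk marks an adjusted p under 0.05. Every pool lies above 0 for the 12 highest genes and under 0 for the 12 lowest.

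Genes of the extratelencephalic subtype were higher in layer 5 nuclei. Of the subtype genes tested, 85.7% of extratelencephalic, 60% of corticospinal, 33.3% of intratelencephalic and 75% of near-projecting ones were called, beside 11.6% over all genes. Of the 7 genes of the list that passed the filter, 6 were higher and 0 lower, with a median log2 difference of 1.71 beside -0.01 over all genes, and these 6 stayed called without any 1 pool. Stac is given above. Parm1, a membrane mucin, ranged from 2.77 to 8.02 RPKM with a median of 4.39, against 0.809 to 2.59 with a median of 0.977 (1.85 ± 0.10, adjusted p = 0.000538). Bcl6, a transcriptional repressor, ranged from 3.40 to 9.44 RPKM with a median of 5.90, against 0.327 to 3.15 with a median of 1.83 (1.83 ± 0.24, adjusted p = 0.00594). The lowest layer 5 pool was above the highest other pool in both genes. The exons of Bcl6, Fam84b, Pou3f1 and Stac overlap those of a predicted or noncoding gene. Fam84b (1.71 ± 0.30), the natriuretic peptide receptor Npr3 (1.21 ± 0.11) and the transcription factor Pou3f1 (1.08 ± 0.16) completed the 6, and Slco2a1 was at a mean of 0.726 against 0.825 RPKM (-0.21 ± 0.14, adjusted p = 0.389). Chrna6, also on the list, did not pass the filter.

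Genes known from corticospinal neurons were more mixed. Of 10 tested, 5 were higher and 1 lower, with a median of 0.41. Cntn6, an adhesion molecule of the contactin family, had a mean of 7.54 against 3.80 RPKM (0.92 ± 0.14). Ldb2, a LIM domain binding cofactor, had 19.5 against 11.8 RPKM (0.71 ± 0.12). These 2 stayed called without any 1 pool, while Crym (0.80 ± 0.17), Opn3 (0.75 ± 0.19), Crim1 (0.59 ± 0.11) and Igfbp4, which was lower (-0.43 ± 0.11), each lost the call without at least 1 pool (highest adjusted p 0.118, for Igfbp4). Pcp4 was at 2.60 against 2.44 RPKM and Cdh13 at 3.81 against 3.24, neither past the threshold.

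Of 6 intratelencephalic genes, 1 was higher and 1 lower. Deptor, an inhibitor of mTOR, ranged from 2.31 to 7.05 RPKM with a median of 4.85 against 1.06 to 2.44 with a median of 1.45 (1.46 ± 0.17, adjusted p = 0.00378), and its pools overlapped only at the 384-well Ehmt1delta/+ value of 2.31. Whrn was at 7.28 against 13.5 RPKM (-0.90 ± 0.18) and lost the call in 5 of the 6 fits that left out a pool (highest adjusted p 0.0695). Batf3 was at 1.01 against 0.459 RPKM (adjusted p = 0.0675).

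Of 4 near-projecting genes tested, 3 were higher, with a median of 1.34. Trhr, the receptor of thyrotropin-releasing hormone, ranged from 0.338 to 3.31 RPKM with a median of 1.31, against 0.0637 to 0.376 with a median of 0.153 (2.21 ± 0.25, adjusted p = 0.00347). Tshz2, a zinc finger transcription factor (chr2:169633013-170071816, plus strand), ranged from 4.16 to 11.7 RPKM with a median of 8.54, against 1.71 to 4.25 with a median of 2.74 (1.44 ± 0.24, adjusted p = 0.0118). In both, only the 384-well Ehmt1delta/+ pool of layer 5 nuclei fell within the range of the others. Lypd1 was at 2.84 against 1.15 RPKM (1.24 ± 0.26) and lost the call without the 96-well wild type, iTg or Ehmt1delta/+;iTg pool (highest adjusted p 0.069). Met was at 0.80 against 0.628 RPKM (0.41 ± 0.23, adjusted p = 0.295).

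**Figure D3:**
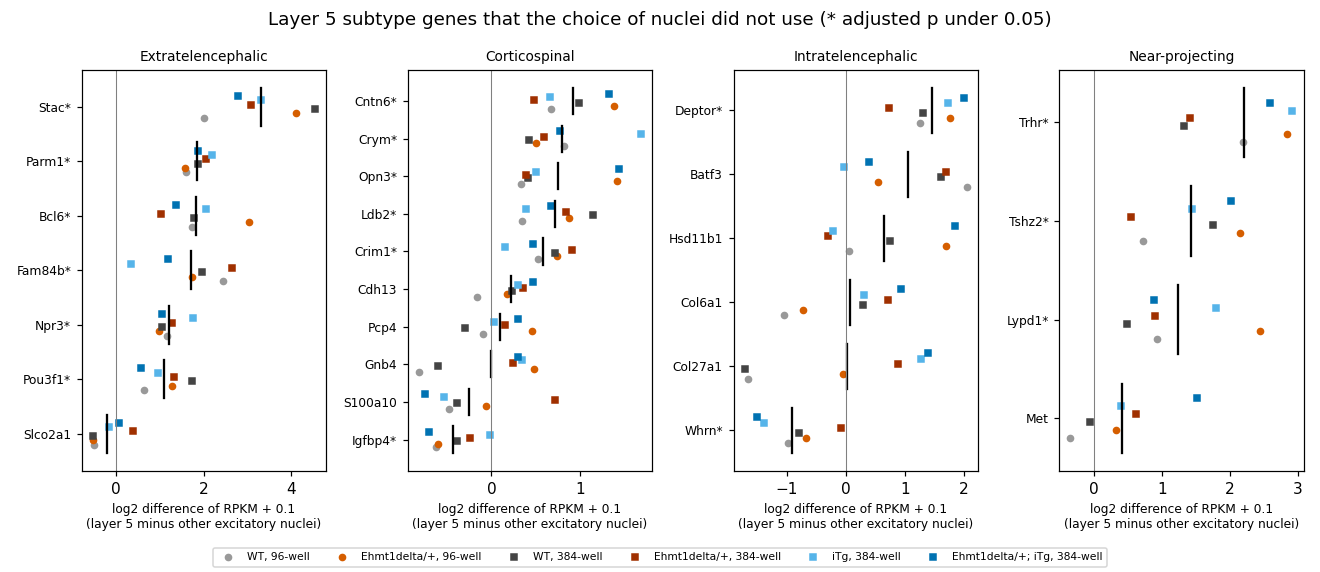
Genes of 4 layer 5 subtypes that the rule did not use, as the log2 difference of RPKM + 0.1 between layer 5 and other excitatory nuclei of the same pool (horizontal axes). Each point is 1 pool, the bar is the mean of the 6 pools, and the asterisk marks an adjusted p under 0.05, which 6 extratelencephalic, 6 corticospinal, 2 intratelencephalic and 3 near-projecting genes reach.

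The subtype genes were spread over many nuclei. At least 2 of the 8 extratelencephalic genes were detected in 60.9% of layer 5 nuclei, 41.4% of the other excitatory nuclei and 27.7% of the shallower oligodendrocyte nuclei. At least 2 of the 5 near-projecting genes were detected in 31.2%, 14.4% and 1.26% of these nuclei, and at least 2 of the 6 intratelencephalic genes in 57.8%, 48.9% and 8.31%. Both the extratelencephalic and the near-projecting criterion were met by 54 layer 5 nuclei (16.5%). Whether detection of a read divides the nuclei into subtypes was not tested.

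The promoters of Stac and Tshz2, each the leading extratelencephalic or near-projecting gene with an entry in the reference, are shown because the layer 5 marker Etv1 is an ETS factor and they were searched for GGAAGT, a motif that holds the GGAA of ETS sites. The windows span the gene start in RefSeq on GRCm38.p6 and are printed 5′ to 3′, and capitals mark GGAAGT, searched on both strands. The Stac window lies at chr9:111690299-111690598 on the minus strand and the Tshz2 window at chr2:169632259-169632558 on the plus strand. The Tshz2 window lies wholly upstream of the gene coordinates given above, which are those of Gencode and not of RefSeq.
Stac: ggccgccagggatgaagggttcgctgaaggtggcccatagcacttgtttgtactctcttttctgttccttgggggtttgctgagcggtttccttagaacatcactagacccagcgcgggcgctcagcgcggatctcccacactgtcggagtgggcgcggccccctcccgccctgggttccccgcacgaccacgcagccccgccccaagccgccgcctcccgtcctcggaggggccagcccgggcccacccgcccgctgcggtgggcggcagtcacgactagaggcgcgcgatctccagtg
Tshz2: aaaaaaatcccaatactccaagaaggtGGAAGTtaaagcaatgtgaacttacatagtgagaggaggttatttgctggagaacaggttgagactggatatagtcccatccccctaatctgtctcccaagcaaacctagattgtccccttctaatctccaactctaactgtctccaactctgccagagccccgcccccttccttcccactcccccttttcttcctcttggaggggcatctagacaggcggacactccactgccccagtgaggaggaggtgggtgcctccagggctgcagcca
The motif occurs 1 time in the Tshz2 window and 0 times in the Stac window. It was in 24.1% of all 27025 promoters, in 26.3% of the 12375 promoters of genes tested and in 19.9% of the 749 promoters of genes higher in layer 5 nuclei. A match is a description of these letters only.

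Genes of other layers were called in both directions, and many were not called. Calls made up 62.5% of upper layer, 75% of layer 4 and 40% of corticothalamic genes tested, beside 11.6% over all genes. Of 8 upper layer genes, 4 were lower and 1 higher (median -0.58), with Cux1 at a mean of 2.64 against 12.5 RPKM (-2.19 ± 0.14), Rasgrf2 at 8.35 against 20.7 (-1.29 ± 0.11), Lamp5 at 11.7 against 21.1 (-0.88 ± 0.15) and Mdga1 at 7.09 against 3.66 (0.82 ± 0.17). Mdga1, the higher one, lost the call without the 96-well wild type, 384-well WT or iTg pool (highest adjusted p 0.0697). Of 4 layer 4 genes, 2 were lower and 1 higher (median -0.45), and the higher one, Il1rapl2, a synaptic protein of the interleukin-1 receptor family, ranged from 4.19 to 8.65 RPKM against 0.988 to 2.29 (1.90 ± 0.11). Of 5 corticothalamic layer 6 genes, 2 were lower, Sla (-1.21 ± 0.20) and Zfpm2 (-0.74 ± 0.08), and 0 higher. The single layer 6b gene that passed the filter, Nr4a2, was not called (-0.04). Of 25 layer-related transcription factors, 5 were higher and 7 lower (median -0.13), with Lmo3 at 12.3 against 5.46 RPKM (1.13 ± 0.17) and Tbr1 at 9.96 against 16.9 (-0.75 ± 0.07). Of 8 general excitatory genes, 0 were higher and 2 lower, Tbr1 and Baiap2 (-0.30 ± 0.06), and Baiap2 lost the call in 5 of the 6 fits that left out a pool (highest adjusted p 0.0826).

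Ion channel genes differed in both directions. Of those tested, 34.3% of potassium, 46.7% of calcium and 28.6% of sodium channel genes were called, beside 11.6% over all genes. Of 35 potassium channel genes, 5 were higher and 7 lower (median -0.10), and 8 of the 12 stayed called without any 1 pool. Kcng1, a modulatory subunit of Kv2 channels (chr2:168260117-168281736, minus strand), ranged from 6.02 to 14.2 RPKM with a median of 11.4, against 1.54 to 6.13 with a median of 2.78 (1.71 ± 0.17, adjusted p = 0.00281), so the pools nearly separated. Kcnn2, a small-conductance calcium-activated channel, ranged from 16.7 to 26.2 RPKM against 7.89 to 12.7 (0.90 ± 0.10), and its relative Kcnn3 was at 3.79 against 2.23 (0.77 ± 0.11). The lowest was Kcns1, another silent Kv2 partner, at 0.693 to 1.33 RPKM against 3.84 to 7.76 (-2.49 ± 0.23), and Kcnip2 was at 18.0 against 40.1 (-1.18 ± 0.12).

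Of 15 calcium channel genes, 3 were higher and 4 lower (median -0.02). Cacna1h, the Cav3.2 T-type channel (chr17:25374285-25433783, minus strand), ranged from 23.2 to 62.7 RPKM with a median of 43.4, against 5.72 to 23.2 with a median of 17.2 (1.52 ± 0.12, adjusted p = 0.00162), and its exons overlap those of Tpsg1 on the other strand. The auxiliary subunit Cacna2d2 was at 3.55 against 1.42 RPKM (1.23 ± 0.21). Cacna2d3 (-0.75 ± 0.11) and Cacna2d1 (-0.53 ± 0.08) were lower. Of 7 sodium channel genes, 1 was higher, the auxiliary subunit Scn3b (0.61 ± 0.10), and 1 lower. None of the 4 neurofilament genes tested was called by limma: Nefh was at 0.45, Nefm at -0.43, Nefl at -0.14 and Ina at -0.01 on the log2 scale.

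Receptor genes were called in both directions. The shares called were 43.5% of glutamate, 64.3% of GABA, 45.5% of monoamine and acetylcholine receptor and 33.3% of peptide genes, beside 11.6% over all genes. Of 23 glutamate receptor genes, 5 were higher and 5 lower (median 0.05), and 5 of the 10 stayed called without any 1 pool. Gria1, an AMPA receptor subunit, ranged from 56.7 to 97.4 RPKM with a median of 77.1, against 38.2 to 51.6 with a median of 41.8 (0.82 ± 0.09), Grin3a was at 2.26 against 1.16 (0.91 ± 0.14), and Grm2 at 7.51 against 12.9 (-0.82 ± 0.09). Of 14 GABA receptor genes, 2 were higher and 7 lower (median -0.29), and 7 of the 9 stayed called without any 1 pool. Gabra5, which serves tonic inhibition, was at 8.84 against 5.10 RPKM (0.80 ± 0.12) and Gabrg3 at 8.97 against 4.94 (0.85 ± 0.15), while Gabrd, an extrasynaptic subunit, was at 14.2 against 25.5 (-0.85 ± 0.08).

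Of 22 receptors for serotonin, dopamine, noradrenaline and acetylcholine, 6 were higher and 4 lower (median 0.13), and 4 of the 10 stayed called without any 1 pool. Htr4 was at 3.49 against 1.45 RPKM (1.17 ± 0.15), Adra1a at 2.06 against 1.10 (0.85 ± 0.11) and Chrna7 at 6.22 against 3.84 (0.68 ± 0.07), while Adrb1 was at 7.67 against 11.3 (-0.59 ± 0.08). Drd5 was at 0.725 against 0.147 RPKM (1.66 ± 0.30) and lost the call without the 96-well wild type, 96-well Ehmt1delta/+ or iTg pool (highest adjusted p 0.0539). Of 18 neuropeptide and peptide receptor genes, 2 were higher and 4 lower (median -0.20). The somatostatin receptor Sstr4 ranged from 20.7 to 41.1 RPKM against 12.4 to 17.6 (1.02 ± 0.15), without overlap, and Oprd1 (-0.84 ± 0.15) and Crhr1 (-0.54 ± 0.09) were lower.

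Axon guidance genes were called in both directions. Calls made up 56.8% of guidance and 35% of adhesion genes tested, beside 11.6% over all genes. Of 37 tested, 16 were higher and 5 lower, with a median of 0.37 beside -0.01 over all genes, and without any 1 pool 7 higher and 4 lower ones stayed called. Robo1, a receptor of Slit ligands, ranged from 4.70 to 7.30 RPKM with a median of 5.27, against 2.34 to 3.10 with a median of 2.74 (1.003 ± 0.11, adjusted p = 0.00317), and Robo2 was at 8.75 against 5.60 (0.60 ± 0.08). Epha6 was at 33.6 against 16.2 RPKM (1.01 ± 0.16), the ephrin Efnb3 at 7.24 against 3.39 (1.06 ± 0.12) and the semaphorin receptor Nrp2 at 7.27 against 3.80 (0.91 ± 0.16). Slit1 was at 71.1 against 42.5 RPKM (0.70 ± 0.13), but lost the call without the 96-well Ehmt1delta/+ pool (adjusted p = 0.0546) and stood at -0.01 when log2(RPKM + 1) was averaged over nuclei. The lowest was Sema3a, a repulsive secreted semaphorin (chr5:13125414-13602565, plus strand), at 0.231 to 0.536 RPKM against 1.48 to 3.11 (-2.02 ± 0.13, adjusted p = 0.000852), followed by Ephb1 (-1.19 ± 0.13) and Unc5d (-1.17 ± 0.13). Of 20 adhesion genes, 4 were higher and 3 lower (median 0.16), with Cntnap5a at 9.54 against 6.13 RPKM (0.61 ± 0.08) and Cdh12 at 7.48 against 14.4 (-0.93 ± 0.08).

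**Figure D4:**
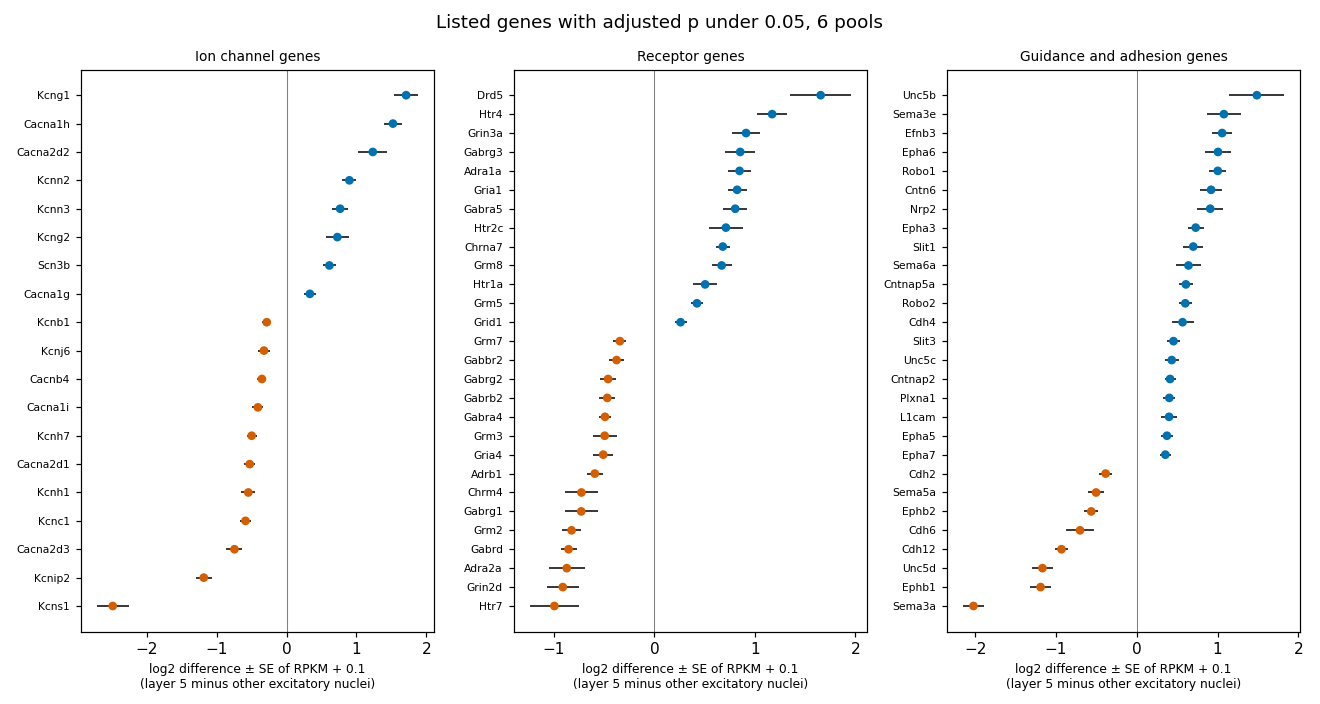
Listed ion channel, receptor, and guidance and adhesion genes with an adjusted p under 0.05, a few left out, as the log2 difference of RPKM + 0.1 between layer 5 and other excitatory nuclei (horizontal axes) with its standard error over 6 pools. Blue points are higher and orange points lower in layer 5 nuclei. Kcns1 and Sema3a are the lowest, and Kcng1, Drd5 and Unc5b the highest of their panels.

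Of other lists, 22.7% of vesicle release, 10% of activity-dependent and 8.33% of histone H3 lysine 9 genes were called, beside 11.6% over all genes. Of 22 vesicle release genes, 2 were higher and 3 lower (median -0.12), with Rims2 at 27.2 against 44.02 RPKM (-0.70 ± 0.08). Of 20 activity-dependent genes, 0 were higher and 2 lower (median -0.24), Homer1 at 25.4 against 43.4 RPKM (-0.76 ± 0.09) and Arc at 65.8 against 102.2 (-0.74 ± 0.16), and Arc lost the call without 5 of the 6 pools (highest adjusted p 0.0841). Of 24 genes of histone H3 lysine 9 methylation, 0 were higher and 2 lower, Cdyl, a chromodomain reader, at 1.24 against 2.93 RPKM (-1.19 ± 0.11) and Atf7ip at 8.06 against 10.1 (-0.33 ± 0.07), which lost the call in 5 of the 6 fits that left out a pool (highest adjusted p 0.0716). None of the 13 mitochondrial or 9 nuclear noncoding genes was called by limma, with medians of 0.01 and 0.05.

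Markers of other cells were checked in the same nuclei, and 30% of the interneuron genes tested were called, beside 11.6% over all genes. Of 10 interneuron genes tested, 3 were higher in layer 5 nuclei and 0 lower: Kcnip1, Nxph1 (3.54 against 0.531 RPKM, 2.44 ± 0.18) and Reln (4.59 against 1.22 RPKM, 1.80 ± 0.29). The GABA-synthesis gene Gad2 was at 0.477 against 0.478 RPKM (0.19 ± 0.38), and Sst, Pvalb and Npy were not called. Summed over 15 interneuron genes, layer 5 nuclei stood at 10.7 to 33.9 RPKM over the pools, the other excitatory nuclei at 6.84 to 17.7 and inhibitory neurons at 666 to 1106, with layer 5 higher in 6 of 6 pools and 0 of the 15 at 0. With nuclei in which Gad1 was detected left out of both classes, 1971 genes were called in place of 2919. The oligodendrocyte sum was 11.1 to 21.9 RPKM against 3288 to 4824 in oligodendrocyte nuclei, and the microglia sum 7.33 to 18.6 against 2850 to 4538 in microglia. The astrocyte sum, 20.7 to 48.3 RPKM, was lower than in the other excitatory nuclei in 6 of 6 pools, and the vascular sum, 0.69 to 1.58, higher in 6 of 6, with 2 of 8 genes at 0. The oligodendrocyte precursor sum was 0.81 to 2.14 RPKM. Of the tested genes of these lists, Slc1a2 (astrocyte, -0.55 ± 0.11) and Mobp (oligodendrocyte, -0.57 ± 0.12) were lower and Pdgfrb (vascular, 1.15 ± 0.22) higher, and each lost the call without at least 2 of the pools (highest adjusted p 0.0726, 0.0693 and 0.0524 for Mobp, Slc1a2 and Pdgfrb). Their part in the results was not tested.

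Layer 6 nuclei, which shared Fezf2 and Bcl11b, were compared next. Over 25270 genes, 2618 (10.4%) were higher and 1528 (6.05%) lower in layer 5 than in layer 6 nuclei, with a median of 0.04 over all genes. Rhbdl3, a rhomboid-like membrane protein (chr11:80300912-80355955, plus strand), ranged from 5.15 to 10.3 RPKM with a median of 7.69 in layer 5 nuclei and from 0 to 0.426 with a median of 0.118 in layer 6 nuclei (5.13 ± 0.27, adjusted p = 0.000238). Cpne7, a copine, ranged from 38.8 to 97.3 RPKM against 0.955 to 11.6 (4.34 ± 0.37), and Grik1, a kainate receptor subunit, from 3.91 to 28.5 against 0 to 2.04 (4.43 ± 0.56). Klk9 was listed at 0 in layer 6 nuclei of all 6 pools, so it passed the filter through layer 5 nuclei alone. Fibcd1, Ptprm, Npsr1, Tcerg1l, Gpc6, Rubcnl, Stac and Klk12 were the other 8 of the 12 highest, with log2 differences of 4.20 to 4.80. The layer 5 pools lay above all layer 6 pools in each gene given here with its ranges.

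The lowest genes against layer 6 were Slc12a4 (0.714 against 18.4 RPKM, -4.81 ± 0.38), Ighm (6.85 against 104.9 RPKM, -4.80 ± 0.62), H60b (-4.32 ± 0.40), Krt80 (-4.23 ± 0.62) and Col5a1, a fibrillar collagen (chr2:27886425-28039514, plus strand), which ranged from 3.99 to 8.92 RPKM against 53.3 to 173.6 (-4.15 ± 0.27). The other 7 of the 12 were T-cell receptor beta joining and diversity segments, Trbj1-2, Trbj1-4, Trbj1-5, Trbj1-6, Trbj1-7, Trbj2-7 and Trbd1, detected in 1.22% to 3.36% of layer 5 and 14.2% to 24.1% of layer 6 nuclei. These segments passed the detection filter through layer 6 nuclei alone, the class in which they were higher. Their place among the 12 lowest thus follows in part from the filter. They are also short neighbours of near-identical kind, so their single values are uncertain. Trbj2-7 lost the call in 5 of the 6 fits that left out a pool (highest adjusted p 0.094) and Trbd1 without the 96-well Ehmt1delta/+ pool (adjusted p = 0.0508), and the other 22 of the 24 genes stayed called.

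By lists, 6 of 7 extratelencephalic genes were higher in layer 5 than in layer 6 nuclei, led by Stac (4.20), Bcl6 (3.49) and Pou3f1 (2.86), and 3 of 4 near-projecting genes, Lypd1 (2.87), Tshz2 (2.45) and Trhr (2.32). Upper layer genes (6 of 8 higher, 0 lower, median 1.37) and layer 4 genes (3 of 4 higher, 0 lower, median 1.29) were also higher. All 5 corticothalamic genes were lower, from Sla (-2.90) to Ntsr1 (-1.26). Of 37 guidance genes, 19 were higher and 7 lower (median 0.63), with Plxnd1 at 42.9 against 3.69 RPKM (3.97) and Epha6 at 33.6 against 3.02 (3.39) the highest. Of 15 calcium channel genes, 7 were higher and 3 lower, and the T-type channels Cacna1g (68.7 against 12.6 RPKM, 2.52) and Cacna1h (43.5 against 9.43, 2.34) led. The corticospinal genes split, with 4 higher and 3 lower: Igfbp4 (2.38 against 9.48 RPKM, -1.93), Pcp4 (2.60 against 5.84, -1.16) and Crym (10.7 against 14.9, -0.48) were the lower ones.

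Against layer 4/5a nuclei, 2873 (11.3%) of 25349 genes were higher and 2419 (9.54%) lower in layer 5, with a median of 0.03 over all genes, and all 24 named genes stayed called without any 1 pool. Thbd, thrombomodulin (chr2:148404466-148408188, minus strand), ranged from 7.36 to 15.5 RPKM with a median of 10.9 in layer 5 nuclei and from 0.00999 to 0.9997 with a median of 0.572 in layer 4/5a nuclei (4.35 ± 0.44, adjusted p = 0.00119), and was detected in 74.9% against 10.4% of nuclei. Fibcd1 had the highest log2 difference of the named genes (4.09 against 0.0367 RPKM, 4.89 ± 0.25), followed by Klk9, Mirt1, Stac, the kinesin Kif26a, the neurexophilins Nxph3 and Nxph1, Myzap, Cntnap5c, Svil and Dchs2, at log2 differences of 4.02 to 4.53. The lowest were Adam33 (2.99 against 69.1 RPKM, -4.73 ± 0.22), Tspan11 (0.254 against 6.00, -4.55 ± 0.43) and Cbln4 (0.406 against 9.41, -4.36 ± 0.14). Ntn4, Il12a, Mamdc2, Ltbr, Il4ra, Cd300lf, Cd200r4, Rab37 and Ddit4l made up the 12. The pools of the 2 classes did not overlap in Thbd, Fibcd1, Adam33, Tspan11 or Cbln4.

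By lists, 6 of 7 extratelencephalic genes were higher and 1 lower (Slco2a1, -0.63), 7 of 10 corticospinal genes were higher and 1 lower, led by Igfbp4 (2.38 against 0.292 RPKM, 2.85) and Crym (10.7 against 1.68, 2.64), and 3 of 4 near-projecting genes were higher. Of 5 corticothalamic genes, 4 were higher and 0 lower. Of 15 calcium channel genes, 5 were higher and 5 lower, with Cacna1h at 43.5 against 5.44 RPKM (3.25) the highest, and of 35 potassium channel genes, 7 were higher and 13 lower, with Kcng1 at 2.79 and Kcns1 at -3.30. Igfbp4 and Crym thus stood between the 2 neighbouring classes in layer 5 nuclei, above layer 4/5a and below layer 6, each difference past the threshold. The 3 comparisons share the layer 5 nuclei, so their values are set side by side only.

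The 3 groups named by leading marker were then compared within the layer 5 nuclei. These groups were small, with 8 to 37 nuclei a pool. In 72 Fezf2-led nuclei, 0 (0.0%) of 25898 genes were higher and 6 (0.0232%) lower than in the other layer 5 nuclei by limma, with 786 (3.03%) higher and 2065 (7.97%) lower at an unadjusted p under 0.05. Slc29a4, a monoamine transporter, ranged from 0.0765 to 2.47 RPKM against 2.66 to 14.6 (-3.20 ± 0.21, adjusted p = 0.0357), and Igsf11, a synaptic adhesion molecule, from 0.378 to 1.75 against 3.74 to 9.09 (-2.24 ± 0.19, adjusted p = 0.0459). The other 4, named after their values were seen, were Npr1, listed at 0 in Fezf2-led nuclei, Lrig3, Fam83d and Gm3687. All 6 lost the call in at least 3 of the fits that left out a pool (highest adjusted p 0.263).

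In the Etv1-led nuclei, 0 (0.0%) of 25677 genes were higher and 0 (0.0%) lower by limma, with 1241 (4.83%) and 1095 (4.26%) at an unadjusted p under 0.05. In 99 Bcl11b-led nuclei, 0 (0.0%) of 25819 genes were higher and 2 (0.00775%) lower, Tgfbr2 (-1.89 ± 0.12, adjusted p = 0.0213) and Gm28729 (-2.15), also named after their values were seen, with 1269 (4.91%) and 2551 (9.88%) at an unadjusted p under 0.05. Each was lost in at least 3 fits that left out a pool (highest adjusted p 0.134 and 0.124). Averaging log2(RPKM + 1) over nuclei called 1.86% of genes in the Bcl11b-led nuclei. None of the 5 near-projecting genes tested was called by limma in the Bcl11b-led nuclei. Tshz2 ranged there from 0.0496 to 6.08 RPKM with a median of 0.702, against 6.21 to 20.8 with a median of 9.78 in the other layer 5 nuclei (-3.80 ± 0.88, limma adjusted p = 0.135). Trhr ranged from 0 to 0.55 RPKM against 0.57 to 3.94 (-3.61 ± 0.67, adjusted p = 0.0914), Slc17a8 from 0 to 0.0462 against 0.0663 to 1.82 (-2.70 ± 0.47, adjusted p = 0.0823), and Lypd1 from 0.192 to 2.70 against 2.35 to 5.002 (-1.73 ± 0.40, adjusted p = 0.132). Met was at a mean of 0.888 against 0.893 RPKM (-0.52 ± 0.69, adjusted p = 0.781). The pools overlapped in Lypd1 and Met and not in the other 3 genes. At least 2 near-projecting genes were detected in 10.1% of Bcl11b-led, 34.7% of Fezf2-led and 42.9% of Etv1-led nuclei.

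The last comparison set pools labelled Ehmt1delta/+ against WT pools within layer 5 nuclei, where Ehmt1 RNA was higher in the pools labelled Ehmt1delta/+. With plate format as a block the 4 pools labelled as without CamKII-CreER left 1 residual degree of freedom. Over 24185 genes, 0 (0.0%) were higher and 0 (0.0%) lower by limma, with a smallest adjusted p of 0.92, and 570 (2.36%) were higher and 714 (2.95%) lower at an unadjusted p under 0.05. Ehmt1 itself differed by 0.68 ± 0.19 (unadjusted limma p = 0.0305, adjusted p = 0.92) and Ehmt2 by -0.08 ± 0.19. The sample titles give the 384-well WT nuclei a code of their own, while the other 384-well pools share another. What this code stands for is not stated, and it cannot be told apart from genotype there.

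The genes with the largest like-signed ratios on both plate formats are given by value, none of them past the threshold. Aspg, an asparaginase, was at 1.17 and 11.1 RPKM in the 96-well WT and Ehmt1delta/+ pools, at 0.969 and 17.2 in the 384-well ones, and at 9.70 and 2.63 with CamKII-CreER, where the order turned. The complement protease C1ra was at 0.16 and 1.03, 0.136 and 1.69, and 0.565 and 1.11 RPKM in the same 3 pairs, higher in each pool labelled Ehmt1delta/+, and its near-identical copy C1rb may share its reads. These C1ra means rest on 3 and 9, 3 and 15, and 5 and 9 nuclei with a read. In the other excitatory nuclei C1ra was at 1.59 and 2.93, 1.90 and 3.17, and 2.59 and 1.22 RPKM, turning in the pair with CamKII-CreER. Cd6 was at 0.395 and 1.57, 0.661 and 2.92, and 0.675 and 2.15 RPKM. It was detected in 13.2% and 21.4%, 13.7% and 18.5%, and 10% and 9.5% of these nuclei, so the share did not rise in the pair with CamKII-CreER. Col27a1, Itprid1, Oprk1, Slc25a45, C1s1, Shc4 and Susd5 were the other 7 higher genes, at log2 differences of 1.56 to 2.51.

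On the lower side, Zfp951 was at 1.78 and 0.309, 0.582 and 0.0888, and 0.873 and 0.145 RPKM in the 3 pairs, and Capn11, a calpain, at 0.836 and 0.26, 5.03 and 0.425, and 11.5 and 0.22. Both were lower in each pool labelled Ehmt1delta/+, and in the other excitatory nuclei as well. Hmga2 was at 1.07 and 0.294, 1.81 and 0.182, and 0.964 and 0.343 RPKM in layer 5 nuclei, and at no more than 0.256 RPKM in the other excitatory nuclei of any pool. The receptor tyrosine kinase Kit was at 3.02 and 0.662, 1.23 and 0.152, and 0.868 and 1.07 RPKM, turning in the pair with CamKII-CreER. Baiap3, Klk8, Ier3, Aldh1l2, Cisd1 and Hist2h2ac completed the 10. A direct test of whether the genotype difference differed between layer 5 and the other excitatory nuclei called 0 (0.0%) of 23969 genes in either direction, with 667 (2.78%) and 414 (1.73%) at an unadjusted limma p under 0.05.

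**Figure D5:**
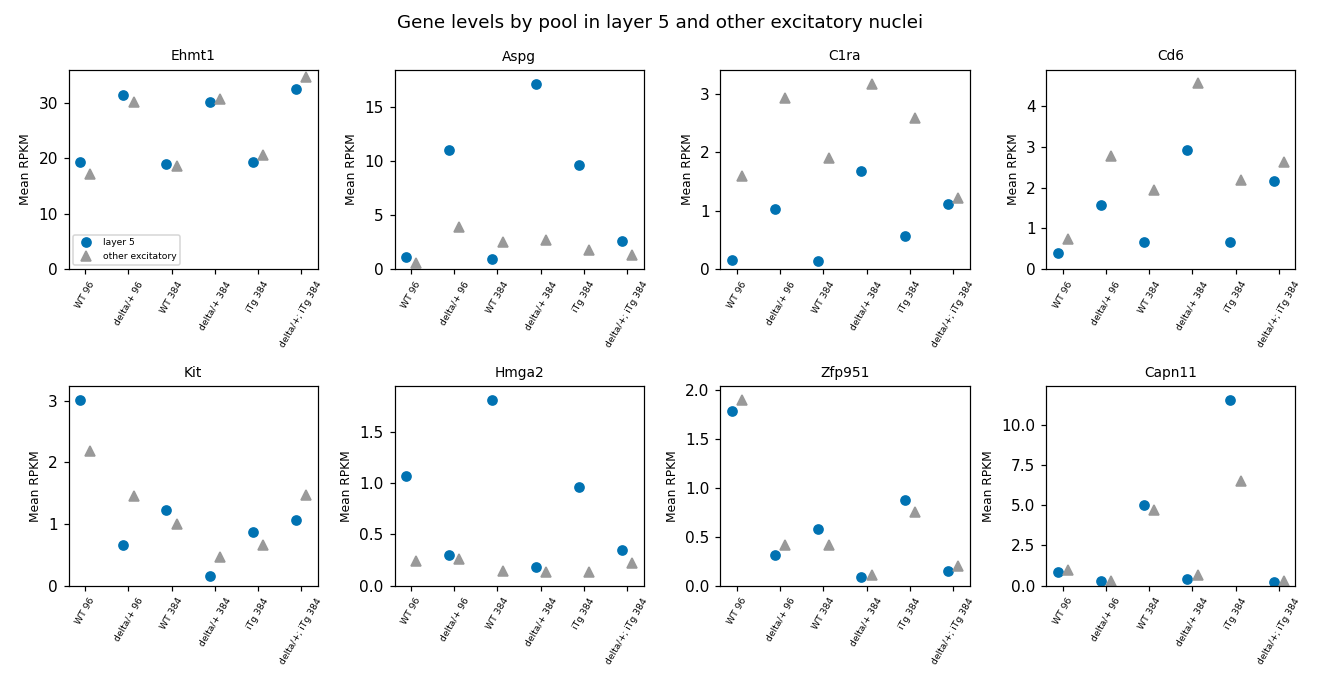
Mean RPKM (linear vertical axes) of Ehmt1 and 7 named genes of the genotype comparison in layer 5 (circles) and other excitatory nuclei (triangles) of each pool. Each point is 1 pool, so that no error is drawn. Ehmt1 lies between 17.2 and 20.6 RPKM in the pools without and between 30.1 and 34.6 RPKM in the pools with the Ehmt1delta/+ label.

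Of 9 genes that the study picked on these samples as altered in Ehmt1delta/+, 7 passed the filter, 0 were called by limma and 5 were higher on both plate formats, but that list is not independent evidence of its direction. The extratelencephalic genes had 1 of 7 higher and 5 of 7 lower on both plate formats (median -0.39), with Stac at 2.10 and 1.63, 4.36 and 2.14, and 4.09 and 0.702 RPKM in the 3 pairs (-0.67 ± 0.26, limma adjusted p = 0.92). Guidance genes had 5 and 12 of 37 in these directions (median -0.15), and histone H3 lysine 9 genes 8 and 7 of 24 (median 0.02). Over all 24185 genes 25.7% were higher and 24.5% lower on both plate formats, and the median was 0.00.

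Against the other excitatory nuclei, 27.3% of the inflammation genes tested were called, beside 11.6% over all genes. Of 11 tested against the other excitatory nuclei, 0 were higher and 3 lower, C1ra (0.781 against 2.23 RPKM, -1.70 ± 0.39), C1rb (-1.53 ± 0.31) and Casp1, the protease that activates interleukin-1 beta (chr9:5298517-5307265, plus strand, -1.09 ± 0.20), and each lost the call without at least 1 pool (highest adjusted p 0.0904, 0.0701 and 0.0508). A read of Casp1 was detected in 14 layer 5 nuclei (4.28%, exact 95% interval 2.36% to 7.08%), 13.7% of upper layer, 16.7% of layer 4/5a and 0.73% of layer 6 nuclei, at medians of 337052 to 374911 reads. The interval of layer 5 lay below those of the upper layer (10.3% to 17.7%) and layer 4/5a (12.995% to 20.9%) nuclei and overlapped that of layer 6 (0.0885% to 2.61%). By pool, Casp1 was detected in 2 of 53, 5 of 56, 2 of 51, 3 of 54, 1 of 50 and 1 of 63 layer 5 nuclei, at means of 0.192, 0.616, 0.104, 0.579, 0.0194 and 0.0196 RPKM, and these counts were too low to tell the pools apart at this depth. The same comparison of 8 of the study's 9 genes gave 0 higher and 4 lower (50% called). Cd6 (1.40 against 2.47 RPKM, -0.91 ± 0.18) was the fourth, and lost the call without the 96-well wild type, 96-well Ehmt1delta/+ or 384-well WT pool (highest adjusted p 0.0586). These intervals cover counting error only.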

How the data were processed

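The authors trimmed reads with Fastq-mcf, aligned them to mm10 with HISAT2 2.0.4, removed poor nuclei with RSeQC and featureCounts, and counted Gencode genes with featureCounts (Subread 1.5.0). They deposited RPKM for 52636 genes, in 1 table per plate format. Default counting settings are stated, yet in the median nucleus 72.4% of values above 0 were whole reads (within 0.001) and nearly all others hundredths of a read, so no count test was run. Cell labels and genotypes are those of the submitters.

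From these RPKM values layer classes were built by the rule in the report, and the mean RPKM over the nuclei of a class in a pool was tested as log2(mean + 0.1) with limma 3.58.1 (R 4.3.3), Benjamini-Hochberg adjusted, over genes detected in 10% of nuclei of either class, without the 12 markers, Slc17a7 and Gad1. The class comparisons used pool as a block (6 pools, 5 residual degrees of freedom) and the genotype comparison plate format (4 pools, 1). Permutation tests and exact binomial intervals used SciPy 1.17.1. The fits were tested on simulated data. Read totals per nucleus were estimated from the value of 1 read in the tables. Doublets were not called. A few listed genes are not reported here by name.

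Named genes were the 12 highest and 12 lowest called genes by log2 difference with one direction in every pool and at least 1 RPKM in the higher class, or for genotype the 10 highest and 10 lowest by the smaller of both within-plate ratios, predicted genes being passed over, and listed genes that were called. Members and all 33 lists were chosen with earlier results of these data known. Alternatives were another pseudocount, filter or summary, stricter members, z-scores per pool, no block, fewer pools, and, chosen after seeing the data, nuclei with Gad1 at 0 and the 96-well pools alone.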

Additional observations from a re-analysis of the deposited data

Results flagged for a closer look

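Of 74 sets of 6 within-pool differences examined with Dixon's test, 8 held a pool far from the others, while chance alone flags about 1 in 20 sets. The values are log2 differences of RPKM + 0.1 between layer 5 and the named class in 1 pool. Against other excitatory nuclei, Klk12 was at 0.92 and Vav2 at 1.88 in the 384-well Ehmt1delta/+ pool, below the other pools, which ran from 3.25 to 4.10 and from 2.86 to 3.36. Slc12a4 was at -5.18 in the 96-well Ehmt1delta/+ pool, the others being at -2.94 to -2.05. Ntn4 was at -4.32 in the iTg pool, the others being at -2.95 to -2.22.

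The iTg pool also stood apart in the 4 other sets. Trbd1 against layer 6 nuclei was at -8.55 there, with the others at -4.41 to -2.26. Against layer 4/5a nuclei, Fibcd1 was at 6.22 (others 4.19 to 4.85), Kif26a at 5.47 (3.72 to 4.33) and Ntn4 at -5.40 (-3.89 to -3.14). Ntn4 and Trbd1 are listed at 0 in the layer 5 nuclei of that pool and Kif26a in its layer 4/5a nuclei, where the difference depends on the 0.1 RPKM added before the logarithm. Each of these pools kept the direction of the others.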

How the results depend on the processing

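Direction held in all but 8 values of single genes under the alternatives run, and numbers of calls moved more. With 2919 genes called for layer 5 against other excitatory nuclei, 4146 against layer 6 and 5292 against layer 4/5a nuclei, the fit with no replicate block, which ignores the pairing of both classes within a pool, called 644, 1899 and 2127. The 384-well pools alone gave 394, 1389 and 1942. Against other excitatory nuclei, no filter on low values gave 1885, the mean of log2(RPKM + 1) over nuclei 4517, and the 96-well pools alone, chosen after seeing the data and with 1 residual degree of freedom, 0. Leaving out 1 pool gave 1509 to 2280, 2828 to 3495 and 3699 to 4535. Fewer pools entered the fits that left some out and more genes the fit with no filter, while the cause of the other shifts was not tested.

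Calls between the groups of leading marker depended on nearly every setting, and are given as the share of genes tested. For Fezf2-led nuclei, 0.0232% became 0.0347% with no filter, 0.1004% (26 genes) with a trended prior, 0% with the mean of log2(RPKM + 1), 0.00385% with strict nuclei, 0.00381% with z-scores per pool, 0.0541% with no replicate block and 0% with the 384-well pools alone, and lay between 0% and 0.00384% without 1 pool. For Etv1-led nuclei, 0% became 0.00389% (1 gene) with a pseudocount of 1 RPKM and with no replicate block. For Bcl11b-led nuclei, 0.00775% became 0.992% with a pseudocount of 1 RPKM, 0.897% with the filter at 25% of nuclei, 1.29% with a trended prior, 1.86% with the mean of log2(RPKM + 1), 0.00388% with strict nuclei, 0.252% with z-scores per pool, 0.352% with no replicate block and 0% with the 384-well pools alone, and lay between 0% and 0.0117% without 1 pool. With strict nuclei the layer 5 share moved below its 95% interval in the 96-well wild type (21.5%) and 384-well WT (17.1%) pools.

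Slit1 turned to -0.011 against other excitatory nuclei with the mean of log2(RPKM + 1). The other 7 turns were in the difference of the genotype effect between layer 5 and other excitatory nuclei, in which no gene was called: Baiap3 at -0.16 with strict nuclei and -0.045 with the mean of log2(RPKM + 1), Capn11 at 0.091, Cd6 at -0.288 and Zfp951 at 0.071 with that mean, C1s1 at -0.079 with a pseudocount of 1 RPKM, and Ier3 at 0.158 with 6 pools in 3 pairs.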
